A study of Rattus norvegicus with 9 samples.

Results

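The genes described here are Nrf2 antioxidant targets and a metallothionein in cultured rat ureteric buds: Nqo1, Hmox1, Gclc, Gclm, Txnrd1, Gsr, Srxn1, Prdx1 and Mt2A. Every probe set whose symbol in the platform's probe table is one of these 9 names was taken. That gave 10 probe sets for 8 of the genes, out of 10411 genes named on the array and 15866 probe sets on the array that were not controls. Prdx1 stands in that table only on a probe set shared with another gene, so it is named without a value. Testing required a signal over the 40th percentile of its own array on 3 or more of the 9, which 8 of the 10 reached, as did 10106 of the 15866. The Gsr probe set and the dimmer of the 2 Gclc probe sets did not pass, being above that percentile on 0 of 9 arrays.

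Buds came from Sprague-Dawley rats at embryonic day 13 and spent 4 days in a gel of growth factor reduced Matrigel and type 1 collagen in equal parts. The HRG group was given human recombinant heregulin alpha, an ErbB receptor ligand, at 500 ng/ml. The PTN group was given pleiotrophin, a secreted growth factor that had been purified out of BSN-CM, at roughly 3 µg/ml. The BSN group was given whole BSN-CM, which is medium that a cell line of metanephric mesenchyme had conditioned. FGF1 at 250 ng/ml and GDNF at 125 ng/ml were in all 3 media, and none of the groups analysed here had these factors alone, so a gene that is high in one medium cannot be told from a gene that is low in another. Each array carried RNA pooled from 3 buds and amplified by double in vitro transcription, with 3 arrays per medium. The series title counts PTN among the branching cultures while the descriptions of its samples call the growth non-branching, and the groups are therefore called by medium. In such bulk RNA, fewer cells of a type and less RNA per cell cannot be told apart.

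Nrf2, encoded by Nfe2l2, is a transcription factor that the adaptor Keap1 holds in the cytoplasm and marks for degradation. Electrophiles and oxidants modify Keap1, and Nrf2 then accumulates, pairs with small Maf proteins such as Mafg and binds antioxidant response elements beside genes that make glutathione, recycle thioredoxin, reduce quinones and supply NADPH. Metallothioneins are short cysteine-rich proteins that bind zinc and copper. Their genes are driven by the zinc-sensing factor Mtf1 through metal response elements, and by glucocorticoids and oxidants as well.

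Promoter sequence is shown for genes whose signals moved in different ways between the media. The windows run from 250 bases before the transcription start up to the base before it and come from RefSeq, rat build GRCr8, where 7 of the 9 names matched. Core motifs of both pathways were searched on both strands: the antioxidant response element core TGACNNNGC and the metal response element core, written TGCACNC or TGCGCNC. Capitals mark matches to either core. The Mt2A window is chr19:10838709-10838958 on the minus strand, the Gclm window chr2:213031885-213032134 on the plus strand, and the Txnrd1 window chr7:22755905-22756154 on the minus strand, which lies before the one of 2 listed Txnrd1 starts whose window held a match.
Mt2A: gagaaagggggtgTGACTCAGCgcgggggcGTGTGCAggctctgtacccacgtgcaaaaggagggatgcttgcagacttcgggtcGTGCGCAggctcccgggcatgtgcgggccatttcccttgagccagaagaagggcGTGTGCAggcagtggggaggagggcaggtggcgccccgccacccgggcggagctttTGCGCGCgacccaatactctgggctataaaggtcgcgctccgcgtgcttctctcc
Gclm: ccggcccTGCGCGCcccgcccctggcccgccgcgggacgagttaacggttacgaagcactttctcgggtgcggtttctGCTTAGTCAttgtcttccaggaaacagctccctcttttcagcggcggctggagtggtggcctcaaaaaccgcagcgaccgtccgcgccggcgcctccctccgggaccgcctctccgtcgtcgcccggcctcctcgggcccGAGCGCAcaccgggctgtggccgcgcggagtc
Txnrd1: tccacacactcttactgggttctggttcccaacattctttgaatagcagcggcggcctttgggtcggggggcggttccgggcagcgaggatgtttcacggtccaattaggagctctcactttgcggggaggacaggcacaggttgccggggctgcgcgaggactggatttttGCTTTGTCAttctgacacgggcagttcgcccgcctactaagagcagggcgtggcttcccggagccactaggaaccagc
Mt2A held 4 metal response cores, a number reached by 0.266% of 33469 windows, and 1 antioxidant response core at bases -237 to -229, which overlaps the AP-1 motif TGACTCA. Gclm held 1 antioxidant response core, at -172 to -164, and 2 metal response cores. Txnrd1 held 1 antioxidant response core, at -78 to -70. Each of the 2 listed Txnrd1 windows lies wholly inside the gene's span, chr7:22717620-22802553, and not upstream of it. The window of Prdx1, which has no signal value here, held 1 antioxidant response core, at -135 to -127, and 2 AP-1 motifs. Of these AP-1 motifs 1, at -133 to -127, lies inside that core. Of all windows 10.1% held at least 1 antioxidant response core and 20.6% at least 1 metal response core. The Nqo1, Gclc and Srxn1 windows held neither core, although Srxn1 has the AP-1 motif TGAGTCA at -62 to -56, a motif that with its other form, TGACTCA, is in 4.05% of windows. The Gclc window, chr8:87510226-87510475 on the plus strand, lies mostly inside the gene's span, which begins at base 87510251. It therefore covers little sequence upstream of that span. These are matches of letters only, and longer stretches upstream were not searched.

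The Nrf2 targets and the metallothionein differed between media in different ways. Nqo1, Hmox1, Gclc and Srxn1 were lower in PTN than in BSN, and these 4 and Gclm were higher in HRG than in PTN. Txnrd1, by the dimmer of its probe sets, was lower both in HRG and in PTN than in BSN. Mt2A was lower in HRG than in either other medium. Signals are the deposited linear values, and each fold change is taken after adding 16 and log2 transformation, with the adjusted p of limma's moderated test over the 10106 kept probe sets and a threshold of 0.05. The added 16 makes the fold changes of low signals smaller than they are, and p-values measure the spread between these arrays.

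**Figure D1:**
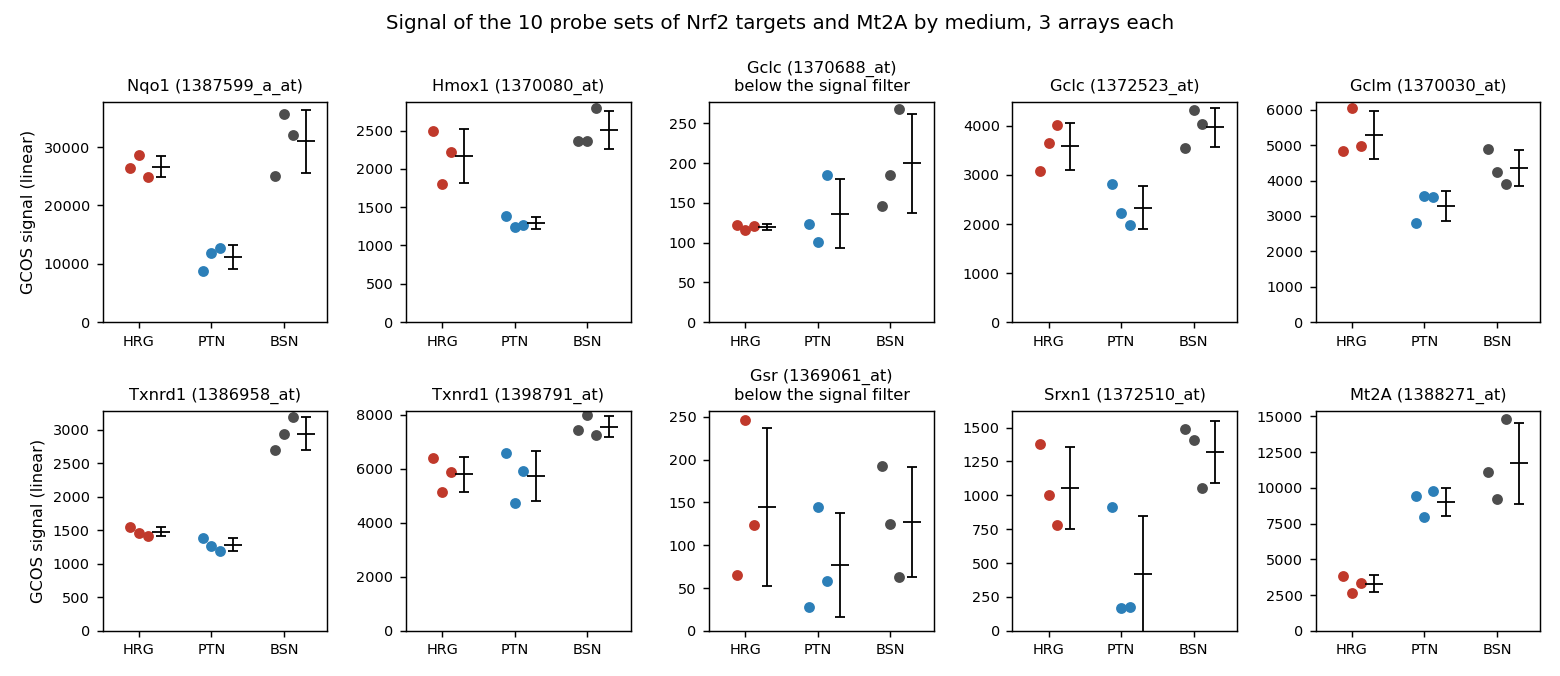
Signal (linear GCOS units, each y axis from 0) of the 10 probe sets on the arrays of each medium; points are arrays and the black bar beside them is the mean ± SD (n = 3). The PTN arrays lie below the HRG and BSN arrays for Nqo1, Hmox1, the brighter Gclc probe set and Gclm, the BSN arrays lie above the others for Txnrd1, and the HRG arrays lie below the others for Mt2A; the SD bar of Srxn1 in PTN passes below 0 and is clipped there.

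Nqo1 (chr19:52205374-52220267 in RefSeq's GRCr8, as for the positions below) encodes a quinone reductase that uses NADH or NADPH and is among the most used readouts of Nrf2. Its signals were 26491, 28590 and 24898 on the HRG arrays, 8774, 11786 and 12782 on the PTN arrays, and 25122, 35743 and 32125 on the BSN arrays. All PTN arrays were below all others, and HRG and BSN overlapped. Nqo1 stood between the 98.3 and the 99.4 percentile of each HRG and BSN array and between 91.6 and 94.4 on the PTN arrays. It was 2.42-fold higher in HRG than in PTN (log2 difference 1.28 ± 0.16 SE, adjusted p = 0.000109), and it fell 2.79-fold in PTN against BSN (log2 difference -1.48 ± 0.16 SE, adjusted p = 0.000103). Both comparisons rest on the same 3 PTN arrays. Between HRG and BSN the log2 difference was -0.20, with a 95% interval of -0.56 to 0.15 (adjusted p = 0.461).

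Hmox1 (chr19:13452365-13479823), the inducible heme oxygenase that turns heme into biliverdin, iron and carbon monoxide, had signals of 2492, 1799 and 2221 in HRG, 1385, 1243 and 1265 in PTN, and 2368, 2359 and 2796 in BSN. Here too every PTN array was below every other array. The gene was 1.65-fold higher in HRG than in PTN (log2 difference 0.72 ± 0.15 SE, adjusted p = 0.00367) and fell 1.92-fold in PTN against BSN (-0.94 ± 0.15 SE, adjusted p = 0.00115). HRG and BSN overlapped, with a log2 difference of -0.21 and a 95% interval of -0.54 to 0.11 (adjusted p = 0.39).

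Glutathione is made in 2 steps, and the first, the joining of glutamate and cysteine, is run by a catalytic subunit encoded by Gclc (chr8:87510251-87548896) and a modifier subunit encoded by Gclm (chr2:213032135-213052192). The brighter Gclc probe set had signals of 3072, 3657 and 4028 in HRG, 2813, 2215 and 1978 in PTN, and 3550.1, 4332 and 4037 in BSN. The highest PTN array was 2813 and the lowest of the others 3072, so the groups did not overlap but came close. Gclc was 1.54-fold higher in HRG than in PTN (log2 difference 0.62 ± 0.16 SE, adjusted p = 0.0134), a call lost without HRG replicate 3 (0.0646) or PTN replicate 3 (0.058). It fell 1.71-fold in PTN against BSN (-0.77 ± 0.16 SE, adjusted p = 0.0054). HRG against BSN gave -0.15, with a 95% interval of -0.50 to 0.20 (adjusted p = 0.604).

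Gclm had signals of 4835, 6063 and 4976 in HRG, 2803, 3552 and 3525 in PTN, and 4902, 4244 and 3918 in BSN. PTN was again the lowest group on every array, with BSN between the others on average. Gclm was 1.6-fold higher in HRG than in PTN (log2 difference 0.68 ± 0.15 SE, adjusted p = 0.00539). Against BSN the PTN difference was -0.40 ± 0.15 SE and missed the threshold (adjusted p = 0.0739), as did the HRG difference of 0.28 ± 0.15 SE (0.258). The dimmer Gclc probe set averaged 119 in HRG, 136.5 in PTN and 199.6 in BSN. The probe set of Gsr (chr16:65185574-65228742), which encodes glutathione reductase, averaged 145 in HRG, 77.1 in PTN and 127 in BSN, with single arrays from 28 to 246. Both are under the signal filter in every medium, and no comparison was made of them.

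Txnrd1 (chr7:22717620-22802553), the cytosolic selenium-containing thioredoxin reductase, has 2 probe sets. The dimmer one had signals of 1553, 1463 and 1417 in HRG, 1390.1, 1272 and 1192 in PTN, and 2699, 2945 and 3187 in BSN. On this probe set the BSN arrays stood apart from all others, unlike Nqo1 or Hmox1, where PTN did. It fell 1.98-fold in HRG against BSN (log2 difference -0.98 ± 0.13 SE, adjusted p = 0.000286) and 2.27-fold in PTN against BSN (-1.19 ± 0.13 SE, adjusted p = 0.000113). HRG and PTN differed by 0.20 with a 95% interval of -0.09 to 0.49 (adjusted p = 0.299), although their arrays did not overlap. The brighter probe set had signals of 6411, 5123 and 5859 in HRG, 6572, 4720.3 and 5912 in PTN, and 7438, 7987 and 7258 in BSN. BSN was again the highest group, by less: the log2 difference was -0.39 ± 0.15 SE for HRG (adjusted p = 0.104) and -0.41 ± 0.15 SE for PTN (0.0648), and neither passed. Without PTN replicate 1 both passed, at -0.39 (0.0467) and -0.51 (0.017).

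Srxn1 (chr3:161064812-161070372) encodes sulfiredoxin, which repairs peroxiredoxins that hydrogen peroxide has over-oxidised; Prdx1 is one of its substrates. Srxn1 signals were 1378, 1003 and 779 in HRG, 911, 165 and 177 in PTN, and 1487, 1410.5 and 1058 in BSN. PTN replicate 1 lay within the HRG range while the other 2 PTN arrays were under their 40th percentile. PTN was below BSN on every array (adjusted p = 0.0105). HRG passed against PTN (adjusted p = 0.022), a call lost without HRG replicate 1 (0.0933), HRG replicate 2 (0.0547), PTN replicate 2 (0.0795) or PTN replicate 3 (0.0858). HRG and BSN gave a log2 difference of -0.34, with a wide 95% interval of -1.41 to 0.72. No fold is given against PTN, since at these signals it depends on the added constant.

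Mt2A (chr19:10837934-10838708), the only metallothionein here with a tested probe set of its own, followed another order. Its signals were 3865, 2681 and 3342 in HRG, 9407, 7934 and 9795 in PTN, and 11145, 9216 and 14805 in BSN. Every HRG array was below every other array, and PTN and BSN overlapped. Mt2A fell 2.76-fold in HRG against PTN (log2 difference -1.46 ± 0.19 SE, adjusted p = 0.000105) and 3.52-fold in HRG against BSN (-1.81 ± 0.19 SE, adjusted p = 3.16e-05). These comparisons share the HRG arrays. PTN against BSN gave -0.35, with a 95% interval of -0.76 to 0.05 (adjusted p = 0.193).

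Another probe set, which the table lists under several genes with metallothioneins among them, was looked at after its values were seen and cannot be given to one gene. It averaged 696 ± 245 in HRG, 2064 ± 485 in PTN and 2910 ± 349 in BSN (SD, n = 3), with all HRG arrays below the others. Its log2 difference was -1.58 ± 0.24 SE for HRG against PTN (limma adjusted p = 0.000396) and -2.09 ± 0.24 SE for HRG against BSN (7.49e-05). The probe set for Mt1 alone was near the bottom of the scale in all media, at 17.8, 33.6 and 40.4 on average in HRG, PTN and BSN, and Mt3 averaged 218, 263 and 372. Metallothionein genes are near copies of each other, and whether these probe sets cross-hybridise was not tested.

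**Figure D2:**
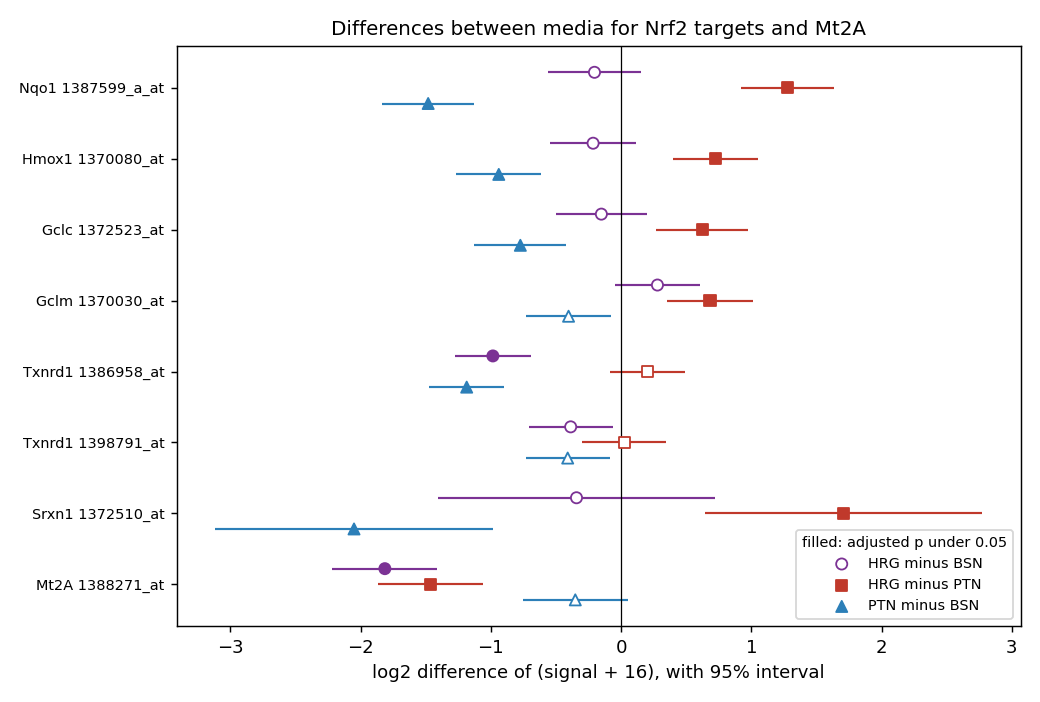
Log2 differences of (signal + 16) between media for the 8 tested probe sets, with 95% intervals from limma; filled symbols have an adjusted p under 0.05. For Nqo1, Hmox1, Gclc and Srxn1 the HRG minus BSN circle is open while the HRG minus PTN square and the PTN minus BSN triangle are filled; for Mt2A the HRG minus BSN and HRG minus PTN symbols are filled, on the negative side.

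Counted over the 7 tested probe sets of Nrf2 targets, 5 were higher in HRG than in PTN and none was lower, and 5 were lower in PTN than in BSN and none was higher. Together with Mt2A, 6 of 8 passed for HRG against PTN, where 25.8% of the 10106 kept probe sets passed, 14.1% as higher and 11.7% as lower. For PTN against BSN 5 of 8 passed, against 22.5% of kept probe sets, of which 9.15% were higher and 13.4% lower. For HRG against BSN 2 of 8 passed, both lower, against 15.8% of kept probe sets, 6.92% higher and 8.86% lower. With each array centred on its median, which moves the median difference of all kept probe sets between PTN and BSN to 0.01, the calls over all kept probe sets split into 1077 higher and 1418 lower between HRG and PTN (1423 and 1180 as deposited) and 1342 higher and 884 lower between PTN and BSN (925 and 1351). The genes were listed with results of these arrays known, so the counts are a description. The median log2 difference of the 8 probe sets was 0.65 in the first of these comparisons, -0.86 in the second and -0.28 in the third, beside 0.08, -0.11 and -0.04 for all kept probe sets. Groups did not overlap between HRG and PTN for 6 of the 8, with HRG higher for 5 and lower for 1, where 40.2% of kept probe sets had separate groups, 22.9% higher and 17.4% lower. Between PTN and BSN they did not overlap for 7 of the 8, all lower in PTN, beside 38.5% of kept probe sets, 14.7% higher and 23.8% lower. Between HRG and BSN they did not overlap for 3 of the 8, all lower in HRG, beside 37% of kept probe sets, 16.1% higher and 20.9% lower.

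**Figure D3:**
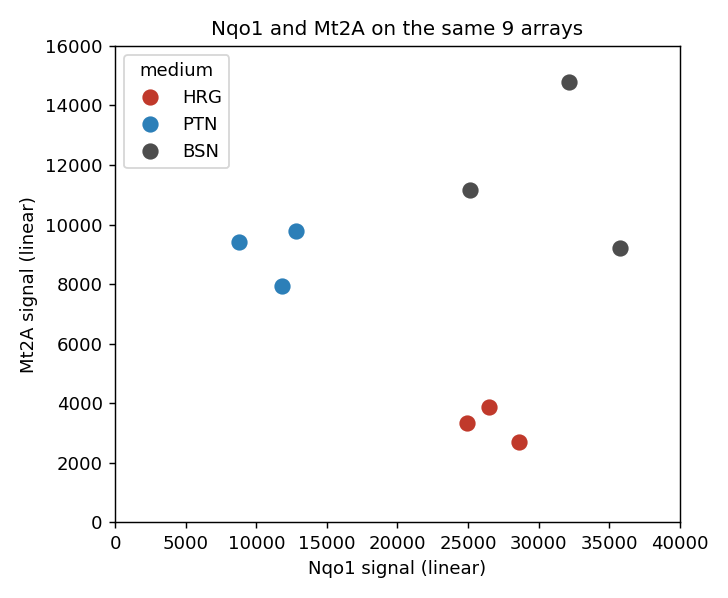
Nqo1 signal (x axis) against Mt2A signal (y axis), both in linear GCOS units, for the 9 arrays coloured by medium. HRG arrays are high in Nqo1 and low in Mt2A, PTN arrays low in Nqo1 and high in Mt2A, and BSN arrays high in both.

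The plot of Nqo1 against Mt2A puts the 3 media in 3 corners. Across the 9 arrays Nqo1 log2 signal had a Pearson's r of 0.883 with Hmox1, 0.822 with Gclc, 0.765 with Gclm and 0.66 with Srxn1, and of -0.211 with Mt2A. These values describe arrays that fall into 3 media and share a scaling, and no test was made of them. Among 8414 other kept probe sets with 1 gene name, those closest to Nqo1 over the 9 arrays were Nhsl3 (r = 0.985), Mlst8 (0.977), a subunit of the mTOR complexes, and Lpar1 (0.977), a lysophosphatidic acid receptor. Lpar1 averaged 3947 in HRG, 1800.5 in PTN and 3862 in BSN. Closest to Mt2A were Igfbp4 (r = 0.982), which binds insulin-like growth factors, Mdk (0.981), which encodes the growth factor midkine, and Kcns3 (0.974), a potassium channel subunit. Igfbp4 averaged 847 in HRG, 2008 in PTN and 2381 in BSN.

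Neither Nfe2l2 nor Keap1 passed the test in any comparison, while some of their partners did. Nfe2l2 was bright in all media, with signals of 23657, 29841 and 32845 in HRG, 22774, 25083 and 25685 in PTN, and 29173, 29123 and 24284 in BSN. The groups overlapped, and the log2 difference was 0.22 for HRG against PTN (95% interval -0.08 to 0.52, adjusted p = 0.269), -0.16 in the PTN and BSN comparison (0.415) and 0.06 in that of HRG and BSN (0.843). Keap1 averaged 3138 ± 251 in HRG, 2728 ± 140 in PTN and 3492 ± 672 in BSN (SD, n = 3), and none of its 3 comparisons passed. Its PTN arrays (2885, 2683 and 2616) were nonetheless all below the lowest HRG array (2940) and the lowest BSN array (3083). The log2 difference was -0.34 for PTN against BSN (95% interval -0.66 to -0.014, adjusted p = 0.122) and 0.20 for HRG against PTN (-0.13 to 0.52, 0.362). Mafg, a small Maf partner of Nrf2, averaged 2461, 2000 and 3349 in HRG, PTN and BSN and was lower in PTN than in BSN (log2 difference -0.74 ± 0.13 SE, limma adjusted p = 0.00209); it was also lower in HRG than in BSN (adjusted p = 0.0383), a call lost under 9 of 19 alternatives. Sqstm1 encodes p62, which binds Keap1 and is itself an Nrf2 target. It averaged 4672 in HRG, 2736 in PTN and 5436 in BSN, 1.73-fold higher in HRG than in PTN (adjusted p = 0.0034) and 2.01-fold lower in PTN than in BSN (0.00118), by the brightest of its probe sets; its other kept probe sets did not pass. In all, of 11 measured regulators 1 (Sqstm1) was higher and 1 (Park7) lower in HRG than in PTN, near the 14.1% and 11.7% of all kept probe sets. Park7 is a redox-sensitive protein linked to Nrf2 stability, and its call was lost under 9 of 19 alternatives. HRG against BSN gave 1 higher (Rbx1) and 1 lower (Mafg), near the 6.92% and 8.86% of all kept probe sets. Between PTN and BSN 4 of the 11 passed, beside 22.5% of all kept probe sets. Park7 and Rbx1 were higher and Sqstm1 and Mafg lower in PTN, which goes both ways. Rbx1, a subunit of the ubiquitin ligase that Keap1 works with, averaged 7669 in HRG, 7779 in PTN and 5490 in BSN and was higher in HRG (adjusted p = 0.0232) and in PTN (0.0156) than in BSN, though its other probe set passed in neither. The HRG call for Rbx1 was lost under 4 of 19 alternatives.

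Many enzymes that conjugate or reduce electrophiles were, like Nqo1, higher in HRG than in PTN. Of 12 measured glutathione transferases, which attach glutathione to reactive compounds, 9 were higher and 1 lower in HRG than in PTN, with a median log2 difference of 1.01 beside 0.08 for all kept probe sets. PTN against BSN gave 7 lower and none higher among the 12, with a median of -0.56, and HRG against BSN 2 higher and 2 lower. Of all kept probe sets 14.1% were higher and 11.7% lower in HRG than in PTN. For PTN against BSN 9.15% were higher and 13.4% lower, and for HRG against BSN 6.92% and 8.86%. After quantile normalization or median centring 9 of the 12 were still higher in HRG than in PTN. Gsta4, which handles lipid aldehydes such as hydroxynonenal, had signals of 13205, 14353 and 16529 in HRG, 6532, 5158 and 5372 in PTN, and 15188, 19901 and 20361 in BSN, 2.58-fold higher in HRG than in PTN (adjusted p = 3.83e-05). Gstp1 averaged 7618 ± 891 in HRG, 3843 ± 914 in PTN and 15439 ± 1495 in BSN (SD, n = 3), so that all 3 media were apart. The exception was Mgst1, a membrane-bound transferase, which averaged 3023 in HRG, 4453 in PTN and 6733 in BSN and was lower in HRG than in both. Gstm1 and Gstm2 were the transferases higher in HRG than in BSN. Gstm1 averaged 3245 in HRG, 979 in PTN and 1106 in BSN, 2.84-fold higher in HRG than in BSN (adjusted p = 0.00509). Gstm2 was 1.79-fold higher in HRG than in BSN (0.0146), a call lost under 3 of 18 alternatives. Transferases of one class are close in sequence, and cross-hybridisation among their probe sets was not tested.

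Quinone, carbonyl and aldehyde enzymes gave a like count. Leaving out Nqo1, 8 of 12 were higher and 1 lower in HRG than in PTN, with a median log2 difference of 0.73, and 6 were lower and none higher in PTN than in BSN. HRG against BSN gave 3 higher (Nqo2, Por and Akr7a2) and 2 lower (Cbr1 and Cbr3). The shares of all kept probe sets are those given above for the transferases. Nqo2, a quinone reductase related to Nqo1, averaged 3828 in HRG, 1682 in PTN and 1876 in BSN, 2.04-fold higher in HRG than in BSN (adjusted p = 0.00235), where Nqo1 overlapped. Por, the reductase that feeds electrons to cytochromes P450, averaged 757 in HRG and 310.3 in BSN, with BSN under the signal filter (adjusted p = 0.00883). Another Por probe set missed the filter and was not tested. It averaged 780 in HRG and 579 in BSN, and there these groups overlapped, so the Por call rests on 1 probe set. Cbr1, a carbonyl reductase, averaged 11170 in HRG, 10584 in PTN and 14768 in BSN, and its HRG against BSN call (0.0462) was lost under 11 of 19 alternatives. Akr1b8, an aldo-keto reductase, had signals of 3387, 1973 and 2583 in HRG, 103, 117 and 149 in PTN, and 1410.5, 2743 and 1880 in BSN. All 3 PTN arrays were below the signal filter while all others were well above it (adjusted p = 4.01e-07 for HRG against PTN and 4.83e-06 between PTN and BSN). Akr1b1, aldose reductase, was 2.33-fold higher in HRG than in PTN (adjusted p = 6.6e-05) and fell 2.06-fold in PTN against BSN (0.000487). Cbr3, a carbonyl reductase, went the other way, with HRG lowest as for Mt2A. Its signals were 327, 39.4 and 36.6 in HRG, 1244, 837 and 1226 in PTN, and 1086, 1647 and 1173 in BSN (adjusted p = 0.000727 for HRG against PTN). All HRG arrays were below the signal filter, so Cbr3 was tested only because of its PTN and BSN arrays. Mt2A was above the filter on 9 of 9 arrays.

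**Figure D4:**
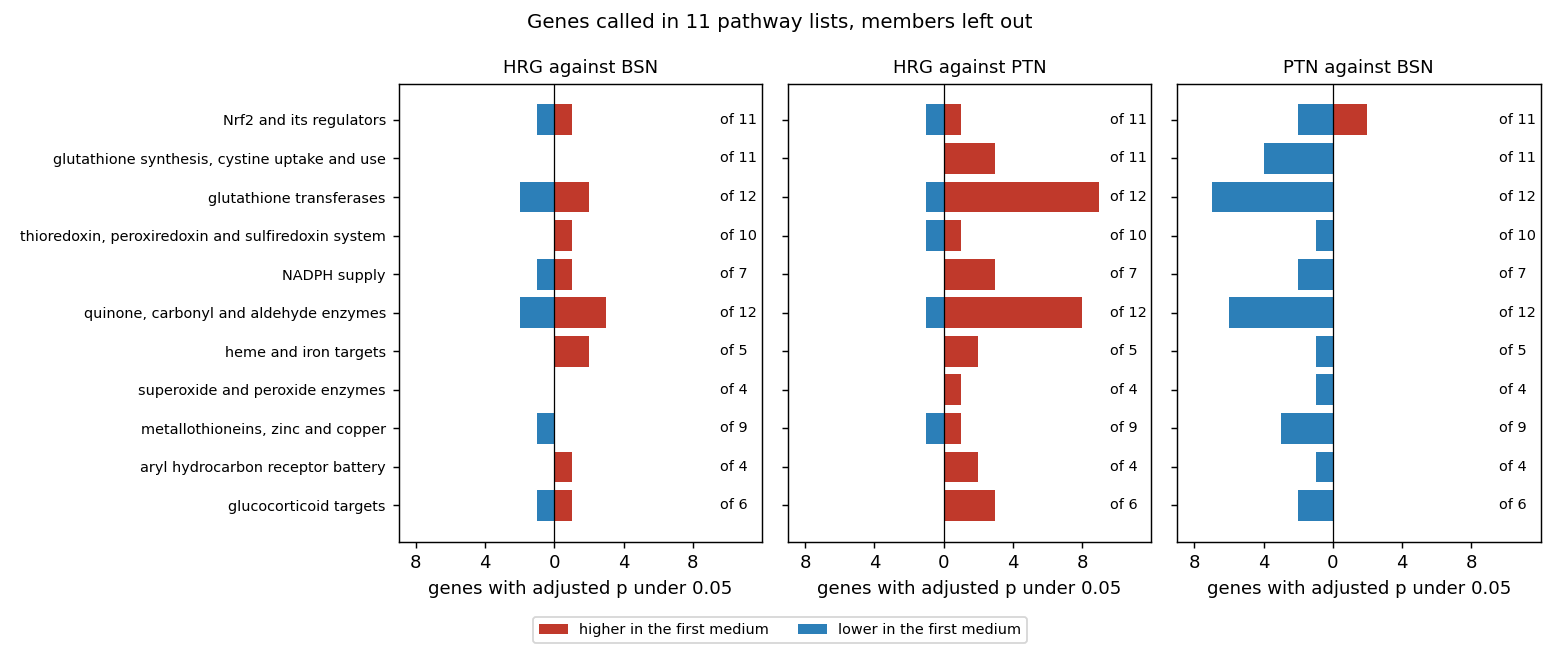
Number of genes with an adjusted p under 0.05 in each of 11 pathway lists, to the right of 0 where higher and to the left where lower in the first-named medium, with the number measured at the right edge; Nqo1, Hmox1, Gclc, Gclm, Txnrd1, Gsr, Srxn1 and Mt2A are left out of the bars. Glutathione transferases (9 of 12) and quinone, carbonyl and aldehyde enzymes (8 of 12) have the longest bars for HRG against PTN. Of all kept probe sets 25.8% passed for HRG against PTN, 22.5% for PTN against BSN and 15.8% for HRG against BSN.

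Other branches of the pathway gave fewer calls. Of 11 further genes of glutathione synthesis, cystine uptake and use, 3 were higher and none lower in HRG than in PTN: Chac1, Gpx2 and Abcc1. The number that passed is near the 25.8% of all kept probe sets, 14.1% higher and 11.7% lower. Chac1, which degrades glutathione and is best known as a target of the amino acid stress factor Atf4, averaged 4638 ± 477 in HRG, 1066 ± 211 in PTN and 4605 ± 532 in BSN (SD, n = 3), 4.35-fold higher in HRG than in PTN (adjusted p = 2.51e-06). Gpx2, a glutathione peroxidase of epithelia, was 2.39-fold higher in HRG than in PTN (adjusted p = 0.00463). Of the same 11 genes 4 were lower and none higher in PTN than in BSN, beside 13.4% and 9.15% of all kept probe sets. The 4 became 1 without BSN replicate 1, BSN replicate 3 or PTN replicate 3 and 2 without PTN replicate 2. Glrx, a glutaredoxin, is counted as uncalled by the probe set with the higher mean log2 signal, at 701 in HRG, 641 in PTN and 664 in BSN. Its other probe set had signals of 706, 1049 and 1243 in HRG, 147, 255 and 156 in PTN, and 689, 1125 and 832 in BSN, with PTN below all others and under the signal filter (adjusted p = 0.000144 for HRG against PTN and 0.000542 between PTN and BSN). The probe sets of Glrx thus disagree. Gss, which runs the second step of glutathione synthesis, was not called in any comparison.

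Thioredoxin and peroxiredoxin genes were mostly uncalled. Leaving out Txnrd1 and Srxn1, 1 of 10 was higher and 1 lower in HRG than in PTN, which is near the background. Prdx3, the mitochondrial peroxiredoxin, was the higher one, with means of 12233 in HRG, 6147 in PTN and 7612 in BSN (1.99-fold higher in HRG than in PTN, adjusted p = 0.000533). Prdx4, which works in the endoplasmic reticulum, was the lower one, with means of 5234 in HRG, 7908 in PTN and 6723 in BSN (adjusted p = 0.00889). Txn1, encoding thioredoxin, was bright at 48901 in HRG, 46586 in PTN and 61322 in BSN. Its PTN against BSN call (adjusted p = 0.0446) was lost under 11 of 19 alternatives.

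NADPH, which Nqo1, thioredoxin reductase and glutathione reductase all use, comes in part from Me1, malic enzyme, and from the pentose phosphate pathway. Of 7 genes of NADPH supply 3 (Idh1, Me1 and Pgd) were higher and none lower in HRG than in PTN, against 1 without HRG replicate 2. Of all kept probe sets 14.1% were higher and 11.7% lower in that comparison. Me1 averaged 6900 ± 1450.5 in HRG, 3883 ± 1326 in PTN and 7529 ± 835 in BSN (SD, n = 3). It was 1.83-fold higher in HRG than in PTN (adjusted p = 0.0195), a call lost without HRG replicate 2 (0.0716) or HRG replicate 3 (0.0757), and 2.02-fold lower in PTN than in BSN (0.0108). A dimmer Me1 probe set also passed, 1.43-fold higher in HRG than in PTN (0.0374). Tkt, transketolase, followed Txnrd1 in being highest in BSN, with means of 13071 in HRG, 16520 in PTN and 30120 in BSN. Idh1, an NADP-dependent isocitrate dehydrogenase, was highest in HRG, with means of 26790 in HRG, 16507 in PTN and 17296 in BSN (1.64-fold over PTN, adjusted p = 0.00291).

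Of 5 heme and iron genes beside Hmox1, 2 (Slc40a1 and Fech) were higher and none lower in HRG than in PTN. Of 4 superoxide and peroxide enzymes only Cat was called in that comparison, as higher. Of all kept probe sets 25.8% passed there, 14.1% as higher and 11.7% as lower, so the count of 1 in 4 is near that share. Slc40a1, the iron exporter ferroportin and an Nrf2 target like Hmox1, had signals of 8618, 7111 and 7429 in HRG, 1943, 1967 and 2340.1 in PTN, and 4713, 4459 and 4482 in BSN. On this probe set no groups overlapped, and Slc40a1 was 3.69-fold higher in HRG than in PTN and 2.18-fold lower in PTN than in BSN (adjusted p = 1.09e-06 and 0.000162). Its 2 other kept probe sets were also called higher in HRG than in PTN and lower in PTN than in BSN, but overlapped between HRG and BSN, with log2 differences of 0.12 (adjusted p = 0.795) and 0.046 (0.94), so the separation of HRG from BSN rests on 1 probe set. Cat, the peroxisomal catalase, was 1.96-fold higher in HRG than in PTN (adjusted p = 0.000974) and fell 1.66-fold in PTN against BSN (0.0080). Sod1, the cytosolic superoxide dismutase, averaged 21180 in HRG, 18646 in PTN and 23396 in BSN and was not called; after quantile normalization it was lower in PTN than in BSN (log2 difference -0.50, adjusted p = 0.02).

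**Figure D5:**
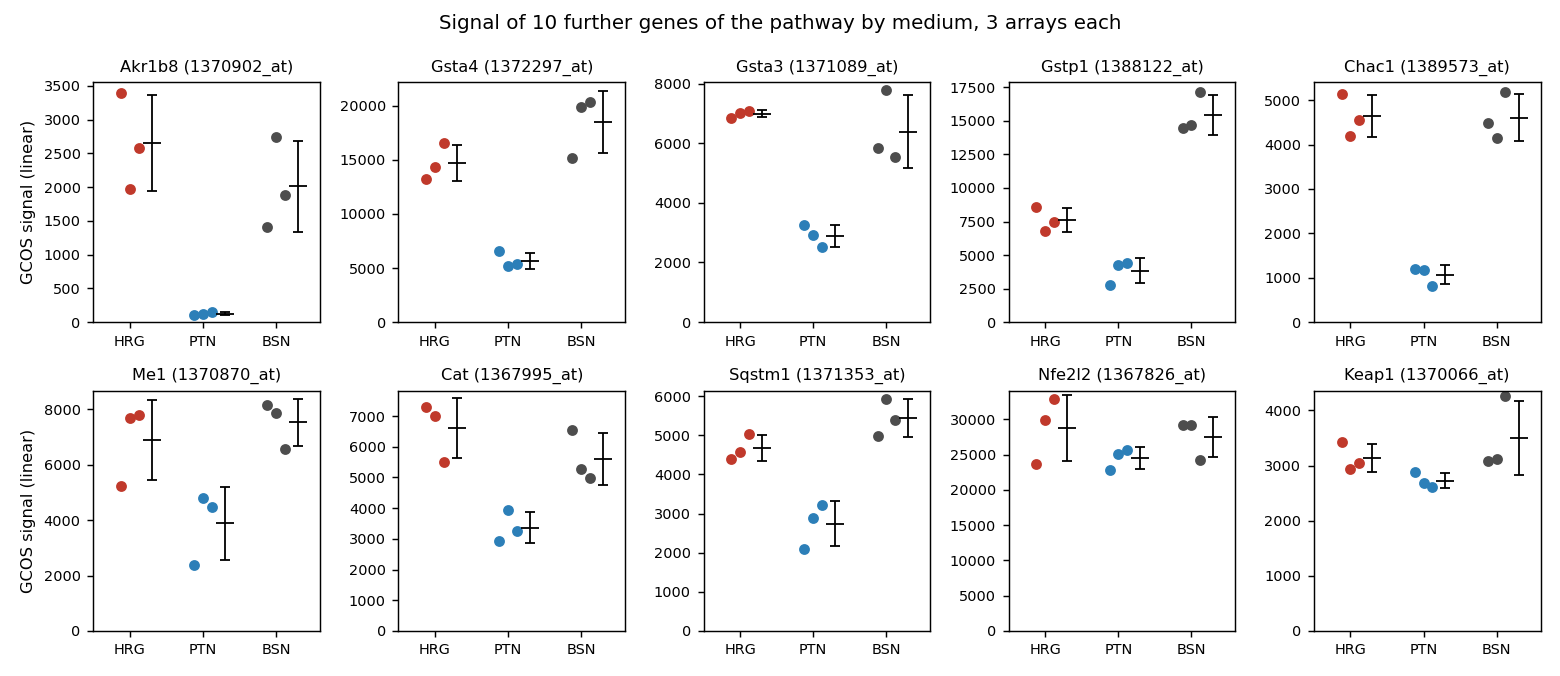
Signal (linear GCOS units, each y axis from 0) of 10 further genes on the arrays of each medium; points are arrays and the black bar is the mean ± SD (n = 3). PTN arrays are lowest for Akr1b8, Gsta4, Gsta3, Gstp1, Chac1, Me1, Cat, Sqstm1 and, by a small margin, Keap1, while the arrays of Nfe2l2 overlap between media.

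Most genes around metallothionein were uncalled in each comparison. Of 9 other genes of metallothioneins, zinc and copper, 1 (Slc39a1) was higher and 1 lower in HRG than in PTN, near the 14.1% and 11.7% of all kept probe sets. In HRG against BSN 1 was lower and none higher, beside 8.86% lower and 6.92% higher of all kept probe sets. Mtf1 averaged 2343 ± 424 in HRG, 1662 ± 494 in PTN and 2516 ± 291 in BSN (SD, n = 3), a different order from that of Mt2A; its PTN against BSN call (adjusted p = 0.0413) was lost under 11 of 19 alternatives. Slc39a10, a zinc importer, was the gene lower in HRG than in PTN, at 8044 in HRG and 12866 in PTN (log2 difference -0.68 ± 0.12 SE, adjusted p = 0.00136). Slc39a4, the intestinal-type zinc importer, averaged 984 in HRG, 907 in PTN and 2063 in BSN, and was lower than in BSN both in HRG (adjusted p = 0.00233) and in PTN (0.00113). Between PTN and BSN 3 of the 9 genes (Slc39a1, Slc39a4 and Mtf1) were lower and none higher, beside 13.4% and 9.15% of all kept probe sets. The zinc exporter Slc30a1, another Mtf1 target, was under the signal filter, at 466 in HRG, 432 in PTN and 355 in BSN. Bach1, Slc7a11 and Mt1a were not analysed here.

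Glucocorticoids also raise metallothionein, and Nqo1 is shared with the aryl hydrocarbon receptor. Of 6 glucocorticoid-linked genes 3 (Klf9, Nr3c1 and Sgk1) were higher and none lower in HRG than in PTN, beside 14.1% and 11.7% of all kept probe sets. The other 3 were not called: Fkbp5 and Tsc22d3, lowest in HRG and highest in BSN as Mt2A was, and Dusp1, highest in HRG. Klf9, a zinc finger factor, was 2.01-fold higher in HRG than in PTN (adjusted p = 0.000588), and Nr3c1, the glucocorticoid receptor, averaged 6689 in HRG, 1983 in PTN and 2340 in BSN. Fkbp5, a classic glucocorticoid target, was lower in HRG than in BSN (log2 difference -1.02, adjusted p = 0.0222), with a call lost in 5 of 19 alternatives. Of 4 genes of the aryl hydrocarbon receptor beside Nqo1, 2 (Cyp1a1 and Tiparp) were higher and none lower in HRG than in PTN. The same 14.1% and 11.7% of all kept probe sets stand beside this count. It was 1 with median centring or without HRG replicate 2. Cyp1a1, the cytochrome induced by the aryl hydrocarbon receptor, had signals of 5317, 7095 and 5356 in HRG, 1139, 1025 and 808 in PTN, and 1998, 2934 and 2103 in BSN. HRG was above BSN (2.53-fold, adjusted p = 0.000368) as well as above PTN (5.9-fold, 1.51e-06), whereas Nqo1 in HRG and BSN overlapped.

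Array quality and cell type markers were set beside these results. The 2% trimmed mean signal was 2500.48 to 2500.58 on the 9 arrays. The actin control's signal ratio of its 3' end to its 5' end was 25.2 ± 5.87 in HRG, 16.6 ± 1.4 in PTN and 33.2 ± 4.91 in BSN (SD, n = 3), so PTN was lowest in this measure as in Nqo1, with an exact permutation p of 0.1 for PTN against each other medium, the smallest that 3 against 3 allows. The same ratio of the GAPDH control ranked the media otherwise, at 2.92 ± 0.8 in HRG, 5.14 ± 1.98 in PTN and 4.57 ± 1.11 in BSN (SD, n = 3), lowest in HRG as Mt2A was, where the exact permutation test of HRG gave p = 0.1 against BSN and 0.3 against PTN. The part of either ratio in the results was not tested. Of 12 ureteric bud epithelium markers on the array 11 passed the signal filter, Pax8 being the exception, and their summed signal was 160670 to 175680 in HRG, 140330 to 165600 in PTN and 167340 to 179610 in BSN. Of these markers 4 were called higher and 3 lower in HRG than in PTN. Epcam averaged 61147 in HRG, 55695 in PTN and 63332 in BSN, while Ret, the GDNF receptor, averaged 918 in HRG, 18756 in PTN and 13512 in BSN. Every PTN array was below all others, as for Nqo1, in Krt18 (means 30231 in HRG, 16294 in PTN and 28638 in BSN), Krt8 (23543 in HRG, 15014 in PTN and 19710 in BSN) and Cdh16 (7618 in HRG, 4618 in PTN and 7780 in BSN). The same held for Krt19, by a small margin to BSN (10622 in HRG, 2181 in PTN and 2925 in BSN). The part of these markers in the Nqo1 result was not tested. The summed signal of 10 mesenchyme and stroma markers was 3863 to 5316 in HRG, 5123 to 5610 in PTN and 5662 to 6204 in BSN, and 5 of the 10 passed the filter, Vim among them at 745 in HRG, 1189 in PTN and 1502 in BSN. Of 6 endothelial markers only Kdr passed, at 329 in HRG, 840.2 in PTN and 742 in BSN, called lower in HRG than in PTN. Kdr was above the 40th percentile on only 4 of 9 arrays, with its HRG and BSN means under it. The endothelial sum was 1437 to 1800.4 in HRG, 1664 to 2045 in PTN and 1709 to 2133 in BSN. Of 9 blood and macrophage markers Lyz2, Csf1r and Cd74 passed, and the sum was 3603 to 4411 in HRG, 3205 to 4299.5 in PTN and 4662 to 5455 in BSN. Every HRG array was below all others, as for Mt2A, in Kdr and in the bud markers Ret, Gfra1 and Lhx1. Gfra1 averaged 2113 in HRG, 5771 in PTN and 5916 in BSN, and Lhx1 1907, 4734 and 4839. Vim and Col1a2 had their lowest means in HRG, with arrays overlapping PTN. Col3a1 went the other way, with every HRG array above all others (means 852 in HRG, 614 in PTN and 670 in BSN). Flt1 and Tie1, under the filter, also had their highest means in HRG. The part of these markers and cell types in the Mt2A result was not tested. Pdgfra, Pdgfrb, Pecam1 and Ptprc were under the filter.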

How the data were processed

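The 9 arrays were read as the authors deposited them: signal intensities on a linear scale, 1 column per array, made with GCOS per the submitters' processing notes; its version is not given in the sources used here. Near-equal trimmed means show that the deposited intensities share a scale, so no further scaling was applied. Of 15923 probe sets 57 were controls. Of the others 12783 had 1 gene symbol, 312 several and 2771 none; symbols were updated by Entrez ID from the RefSeq gene table of assembly GRCr8.

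Log2 of signal plus 16 was fitted in R 4.3.3 with limma 3.58.1 (intensity trend, all 9 arrays, 6 residual and 12.7 moderated degrees of freedom), with Benjamini-Hochberg adjustment over kept probe sets. The fit was tested on simulated data. With 3 arrays a group, their number limits precision. The series design calls the arrays biological replicates.

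Members and lists were chosen with earlier results of these data known. Named genes are all members, 13 genes always named where measured, up to 2 highest and 2 lowest called genes by moderated t per list and comparison, and the 3 probe sets closest to Nqo1 and to Mt2A. Gss, Glrx, Pgd, Tsc22d3, Dusp1, the shared metallothionein probe set, single markers and other members of small counts were named after their values were seen. A gene is given by its brightest kept probe set unless said. Same-numbered arrays correlated, in deviations from their group means, at 0.118 to 0.332 for HRG and PTN, and at 0.13 or below for the other pairs. This is a hint of pairing from the data, not the labels; the block changed no call of a member. Alternatives were other scalings, pseudocounts, filters, variance models, the replicate block, and each array left out. Figures used Python 3.11.15 and matplotlib 3.10.9.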

Additional observations from a re-analysis of the deposited data

How the results depend on the processing

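Of 453 refits of the 24 member results, over 3 comparisons, 437 kept their direction and side of the threshold, 8 lost a call, 5 gained one and 3 changed sign. Over 19 alternatives Nqo1 ranged from 1.12 to 1.39 for HRG against PTN and Mt2A from -1.97 to -1.63 for HRG against BSN (log2). Losses, all for HRG against PTN, were 6 for Srxn1 and 2 for Gclc; beside the arrays named above, Srxn1 missed the threshold with no filter (0.0524) and with only the compared groups (0.0532). The brighter Txnrd1 probe set gained 5 calls against BSN, among them with array weights (0.0276 for HRG, 0.00882 for PTN), and for HRG against PTN its 0.02 became -0.054 with median centring and ran from -0.11 to 0.13 with single arrays left out, below 0 without HRG replicate 1 or PTN replicate 2. Between HRG and BSN, Nfe2l2 became -0.047 with quantile normalization, and with single arrays left out Nfe2l2 ran from -0.046 to 0.19, Keap1 from -0.22 to 0.013, Me1 from -0.24 to 0.045 and Mtf1 from -0.25 to 0.0027; the cause was not tested. With the replicate block 2, 6 and 5 members passed, as without it (HRG and BSN, HRG and PTN, PTN and BSN, in that order here and below). Over all probe sets, 1594, 2603 and 2276 passed in these comparisons, and 844, 1475 and 1066 at an adjusted p under 0.01. Array weights gave 2439 in the first and 3480 in the third. Leaving out single arrays gave 1053 to 2225 (HRG and BSN), 1882 to 3109 (HRG and PTN), 1358 to 3222 (PTN and BSN), with members called 2 to 3, 4 to 6, 5 to 6. Median centring changed the split of higher and lower calls to 802 and 778, 1077 and 1418, and 1342 and 884, against 699 and 895, 1423 and 1180, and 925 and 1351; it moved the median difference between PTN and BSN to 0.01, against -0.11.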
